A study of Mus musculus with 18 samples.

Results

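The genes described here are the unfolded protein response and amino acid stress genes of mouse hepatocytes, 40 genes listed by function and reported as 2 arms. The chaperone arm holds 23 genes, which are 14 endoplasmic reticulum (ER) chaperones and folding enzymes, 5 genes of ER-associated degradation, and 4 genes for the stress sensors and Xbp1. The ATF4 arm holds 17 genes, of which 16 were measured, so that 39 of the 40 members are among the 18194 genes with a value. Gdf15 has no value here and enters only the promoter search. Where a gene had several probe sets, as 27 members did, the one brightest on average across the 18 arrays was used.

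The arrays measured RNA from primary hepatocytes of male C57BL/6N mice aged 8 to 12 weeks, plated on collagen I and kept in serum-free medium with dexamethasone, then in a starvation medium without it. IL-6 plus HGF cells received recombinant human IL-6 at 40 ng/ml from 0 h and recombinant mouse HGF at 40 ng/ml in addition from 4 h, and were sampled on 8 arrays at 5, 6, 7, 8, 9, 10, 12 and 24 h. IL-6 cells were sampled at 1, 2, 3 and 4 h, and untreated control cells at 0, 4, 8, 12 and 24 h, with 1 further control array at -5 h. Cells came from 1 animal or a pool of up to 3 animals, every condition and hour is 1 array, and p-values therefore measure the spread between these dishes and times. Cells with HGF alone, or with IL-6 alone after 4 h, are not among the samples used here, so that HGF and a longer time in IL-6 cannot be told apart.

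The unfolded protein response raises the folding capacity of the ER when unfolded protein accumulates there. Of its sensors, IRE1 (gene Ern1) splices the Xbp1 transcript, ATF6 is cleaved to a transcription factor, and PERK (gene Eif2ak3) phosphorylates the initiation factor eIF2alpha, which slows translation in general and favours that of ATF4. XBP1 and ATF6 act on chaperone and degradation genes, and ATF4, which amino acid shortage also brings up through another eIF2alpha kinase, acts on genes of amino acid transport, synthesis and stress feedback. The hepatocyte is a secretory cell that makes most plasma proteins, and IL-6 is the main signal for its acute-phase proteins.

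The promoters of the members were searched first, because the arms are known for different stress elements. The search covered both strands of the 300 bases around each gene start (250 before, 50 after, RefSeq promoters of build GRCm38.p6) and looked for the ER stress response element ERSE, spelled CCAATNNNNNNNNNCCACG, for the related element ERSE-II, spelled ATTGGNCCACG, and for the core of the amino acid response element, spelled TGATGNAA. A promoter was found for 20 genes of the chaperone arm and 16 of the ATF4 arm, and Manf, Hyou1, Atf6 and Slc7a5 have none in the table used. ERSE occurred in 9 of 20 chaperone-arm promoters (45.0%), which are those of Hspa5, Hsp90b1, Creld2, Pdia6, Calr, Canx, Dnajc3, Syvn1 and Derl3, in 0 of 19 ATF4-arm promoters, and in 39 of 32851 promoters in all (0.12%). ERSE-II occurred in those of Dnajb11 and Herpud1 (12 of 32851 in all, 0.04%), and no member's promoter held both elements. The amino acid response core occurred in the promoters of Asns, Chac1, Slc7a11 and Trib3, 4 of 19 in the ATF4 arm (21.05%), and in 1 of 20 of the chaperone arm (5.0%), against 1304 of 32851 in all (3.97%). Some ATF4-arm genes have more than 1 listed start, hence 19 promoters for 16 genes. These 16 include Gdf15, which has no expression value, and are not the same as the 16 measured genes. A match describes the letters in this window and says nothing of binding. The promoters shown are those of 5 chaperone genes higher at matched hours, 4 with the element and Sdf2l1 without it. Also shown are those of Trib3 and Slc7a11, ATF4-arm genes that share the core. At matched hours these genes differed from control in opposite directions, whereas both fell along the IL-6 plus HGF course. Capitals mark the fixed letters of a match with the free bases between them in lower case, and each promoter reads 5′ to 3′ along its gene.
Hspa5, chr2:34771840-34772139, plus strand: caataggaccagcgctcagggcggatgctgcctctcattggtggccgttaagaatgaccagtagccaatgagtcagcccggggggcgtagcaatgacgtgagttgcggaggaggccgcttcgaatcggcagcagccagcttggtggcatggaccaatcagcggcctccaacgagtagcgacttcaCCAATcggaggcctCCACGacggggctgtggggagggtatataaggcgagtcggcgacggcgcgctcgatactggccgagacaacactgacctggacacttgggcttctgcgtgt
Hsp90b1, chr10:86705395-86705694, minus strand: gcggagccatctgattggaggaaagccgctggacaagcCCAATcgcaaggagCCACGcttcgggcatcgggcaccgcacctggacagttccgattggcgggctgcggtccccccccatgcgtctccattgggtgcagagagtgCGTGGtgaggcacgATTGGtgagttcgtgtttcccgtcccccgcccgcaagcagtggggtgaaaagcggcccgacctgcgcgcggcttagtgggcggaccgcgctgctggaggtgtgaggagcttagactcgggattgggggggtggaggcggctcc
Creld2, chr15:88819396-88819695, plus strand: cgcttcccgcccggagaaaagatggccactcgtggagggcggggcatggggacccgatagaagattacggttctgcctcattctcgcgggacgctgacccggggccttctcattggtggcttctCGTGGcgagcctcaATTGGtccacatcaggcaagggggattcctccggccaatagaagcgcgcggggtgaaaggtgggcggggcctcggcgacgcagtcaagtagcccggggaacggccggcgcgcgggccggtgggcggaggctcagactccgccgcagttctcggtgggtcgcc
Pdia6, chr12:17266339-17266638, plus strand: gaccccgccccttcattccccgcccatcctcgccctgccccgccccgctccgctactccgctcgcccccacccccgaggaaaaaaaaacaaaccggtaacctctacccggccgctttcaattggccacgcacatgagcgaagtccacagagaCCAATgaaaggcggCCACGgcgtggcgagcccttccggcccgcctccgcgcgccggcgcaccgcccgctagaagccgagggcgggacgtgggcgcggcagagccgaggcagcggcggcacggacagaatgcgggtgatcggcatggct
Sdf2l1, chr16:17132334-17132633, minus strand: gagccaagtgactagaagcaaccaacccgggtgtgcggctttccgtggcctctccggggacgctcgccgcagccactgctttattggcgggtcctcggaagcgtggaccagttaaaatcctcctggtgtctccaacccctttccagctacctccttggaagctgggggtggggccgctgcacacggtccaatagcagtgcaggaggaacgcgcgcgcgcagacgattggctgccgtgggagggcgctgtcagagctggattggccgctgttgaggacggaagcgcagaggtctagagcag
Trib3, chr2:152344011-152344310, minus strand: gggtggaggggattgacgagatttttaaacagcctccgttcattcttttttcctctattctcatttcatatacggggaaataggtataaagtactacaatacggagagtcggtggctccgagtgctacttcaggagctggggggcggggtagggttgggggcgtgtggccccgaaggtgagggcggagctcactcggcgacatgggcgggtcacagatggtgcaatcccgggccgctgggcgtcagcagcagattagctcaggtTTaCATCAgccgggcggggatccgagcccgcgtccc
Slc7a11, chr3:50443564-50443863, minus strand: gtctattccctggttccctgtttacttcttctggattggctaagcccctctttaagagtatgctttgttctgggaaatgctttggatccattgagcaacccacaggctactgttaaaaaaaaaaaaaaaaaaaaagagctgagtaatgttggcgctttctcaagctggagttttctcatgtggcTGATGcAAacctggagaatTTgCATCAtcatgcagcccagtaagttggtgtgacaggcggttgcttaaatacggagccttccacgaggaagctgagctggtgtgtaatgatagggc
In Hspa5 and Pdia6 the element lies on the strand of the gene, in Creld2 on the opposite strand, so that it reads there as its reverse complement, and Hsp90b1 holds 1 on each strand. Slc7a11 likewise holds the core on both strands, and Trib3 on the opposite strand just after its start.

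The values are the authors' log2 signals, and differences between groups are differences of log2 signal tested with limma (moderated linear models) and Benjamini-Hochberg adjustment over all 18194 genes; a gene was called at an adjusted p under 0.05. Array medians lay between 5.47 and 5.57, and each array correlated with the rest at 0.985 to 0.994 on average. The 7 of 8 hepatocyte markers measured had a mean log2 signal between 10.89 and 12.06 in IL-6 plus HGF cells, between 12.27 and 12.52 in IL-6 cells and between 11.53 and 12.56 in control cells from 0 h, lowest in both courses at 24 h. In bulk RNA, fewer cells of a type and less RNA per cell cannot be told apart. The nuclear RNAs Malat1 and Neat1 varied more than any other marker list, between 8.56 and 12.01 as a mean log2 signal in IL-6 plus HGF cells, and their values are given beside the results they move with.

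The median member of the chaperone arm lay above its 0 h level on every array after HGF had been added. It lay 0.15, 0.25, 0.29, 0.25, 0.40, 0.39, 0.29 and 0.09 log2 units above the control at 0 h in IL-6 plus HGF cells at 5, 6, 7, 8, 9, 10, 12 and 24 h, and -0.04, -0.03, 0.01 and 0.05 from it in IL-6 cells at 1 to 4 h, against -0.07, -0.12, -0.10 and -0.11 in control cells at 4, 8, 12 and 24 h. The ATF4 arm took another course. Its median member had a difference of 0.10 in IL-6 plus HGF cells at 5 h and of -0.39 at 24 h, against -0.61 in control cells at 24 h. Both conditions thus lay well under the 0 h level by the last hour. In the control at -5 h the median was -0.30 in the ATF4 arm and 0.07 in the chaperone arm, so the ATF4 arm was also lower before 0 h. With the mean of all probe sets of a gene in place of the brightest, the chaperone-arm median at 9 h was 0.25. These medians describe the lists and were not tested.

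**Figure D1:**
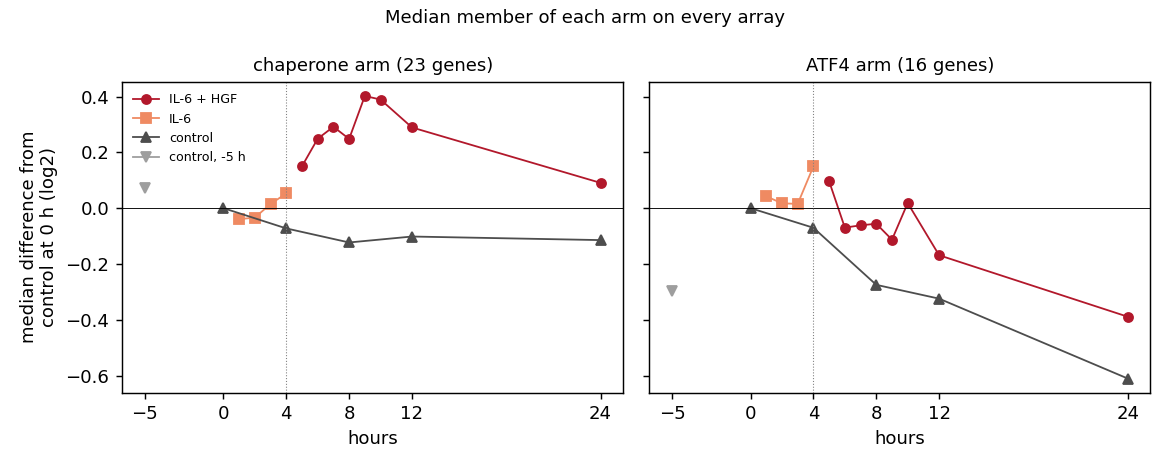
Median over the 23 genes of the chaperone arm (left) and the 16 measured genes of the ATF4 arm (right) of the difference in log2 signal from the control array at 0 h, by hour on the x axis, 1 array a point. The chaperone arm stands at 0.40 at 9 h under IL-6 plus HGF (0.25 with the mean of all probe sets) and at or below -0.07 in every control after 0 h, whereas the ATF4 arm stands at -0.39 under IL-6 plus HGF and at -0.61 in control cells at 24 h.

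The effect of both factors was tested at matched hours, IL-6 plus HGF against control at 8, 12 and 24 h with the hour as a block. Of the 14 chaperones and folding enzymes, 6 were higher and 0 lower, namely Hspa5, Hsp90b1, Creld2, Sdf2l1, Manf and Pdia6, and all 14 differences were positive with a median of 0.39. Over the whole chaperone arm that is 6 of 23 higher and 0 lower, against 2.53% of all genes called higher and 6.45% called lower, and the median difference was 0.26 in the arm and 0.01 over all genes.

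Hspa5 encodes BiP, the main Hsp70 chaperone of the ER and the gene most used as a readout of this response. Its log2 signal was 13.83, 13.83 and 13.35 in IL-6 plus HGF cells at 8, 12 and 24 h, against 13.24, 13.17 and 13.10 in control cells at the same hours. The difference was 0.50 ± 0.10 (SE, adjusted p = 0.0299), a 1.42-fold difference. Over the 8 IL-6 plus HGF arrays Hspa5 had a lowest value of 13.35 at 24 h, a median of 13.80 and a highest of 13.89 at 9 h, the IL-6 arrays at 1 to 4 h read 13.40, 13.39, 13.38 and 13.47, and the controls from 0 to 24 h read 13.42, 13.33, 13.24, 13.17 and 13.10. Control cells read lower at each later hour, and the 24 h value of the stimulated cells lay within the control range.

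Hsp90b1 encodes GRP94, the Hsp90 chaperone of the ER. It measured 12.01, 12.32 and 12.07 in IL-6 plus HGF cells at 8, 12 and 24 h, against 11.65, 11.55 and 11.71 in control cells. The difference was 0.50 ± 0.10 (SE, adjusted p = 0.0346). All 8 IL-6 plus HGF values, with a lowest value of 11.91 at 6 h, a median of 12.04 and a highest of 12.32 at 12 h, lay above all 5 controls from 0 h, which read 11.69, 11.57, 11.65, 11.55 and 11.71. IL-6 cells read 11.63, 11.70, 11.72 and 11.78.

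Creld2 encodes an ER-resident protein induced by ER stress, and it showed the largest difference of the arm. Its signal was 10.12, 10.31 and 9.52 in IL-6 plus HGF cells, against 9.12, 9.23 and 9.25 in control cells at those hours. That is a difference of 0.78 ± 0.16 (SE, adjusted p = 0.0318), or 1.72-fold. The gap was much narrower at 24 h, where the pair differed by 0.27, than at 12 h, where it differed by 1.08. The 8 IL-6 plus HGF arrays had a lowest value of 9.52 at 24 h, a median of 10.12 and a highest of 10.48 at 10 h. IL-6 cells read 9.25, 9.48, 9.33 and 9.57, against 9.54, 9.06, 9.12, 9.23 and 9.25 in control cells from 0 to 24 h, so that those groups overlapped.

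Sdf2l1, a partner of BiP and its DnaJ cofactors, had the smallest p of the members. It read 7.56, 7.73 and 7.39 in IL-6 plus HGF cells, against 6.82, 6.82 and 6.75 in control cells. The difference of 0.77 ± 0.08 (SE, adjusted p = 0.00511), 1.7-fold, stayed called under each of the 12 alternatives run for it. All 8 IL-6 plus HGF arrays, with a lowest value of 7.19 at 5 h, a median of 7.52 and a highest of 7.73 at 12 h, lay above the 5 controls, which read 7.04, 6.94, 6.82, 6.82 and 6.75 from 0 to 24 h. IL-6 cells, at 6.84, 6.98, 6.95 and 7.08, overlapped the controls.

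Manf, a secreted and ER-resident factor released on ER stress, read 12.21, 12.32 and 11.75 in IL-6 plus HGF cells, against 11.31, 11.46 and 11.45 in control cells. It differed by 0.69 ± 0.13 (SE, adjusted p = 0.0256), or 1.61-fold. Its IL-6 plus HGF arrays, with a lowest value of 11.75 at 24 h, a median of 12.19 and a highest of 12.41 at 9 h, did not overlap the controls of 11.46, 11.38, 11.31, 11.46 and 11.45 from 0 h either, and IL-6 cells read 11.42, 11.52, 11.55 and 11.67. Pdia6, a protein disulfide isomerase, measured 11.91, 12.12 and 12.01 in IL-6 plus HGF cells and 11.50, 11.58 and 11.71 in control cells. The difference was 0.41 ± 0.08 (SE, adjusted p = 0.0296), and here the control values were also higher at each later hour of these 3. Its second probe set gave 0.17, and the call was lost in 7 of the 12 alternatives run for it. Over the whole course Pdia6 had a lowest value of 11.58 at 5 h, a median of 11.88 and a highest of 12.12 at 12 h in IL-6 plus HGF cells, 11.48, 11.52, 11.43 and 11.50 in IL-6 cells and 11.62, 11.49, 11.50, 11.58 and 11.71 in control cells, so that the IL-6 plus HGF and control values overlapped.

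**Figure D2:**
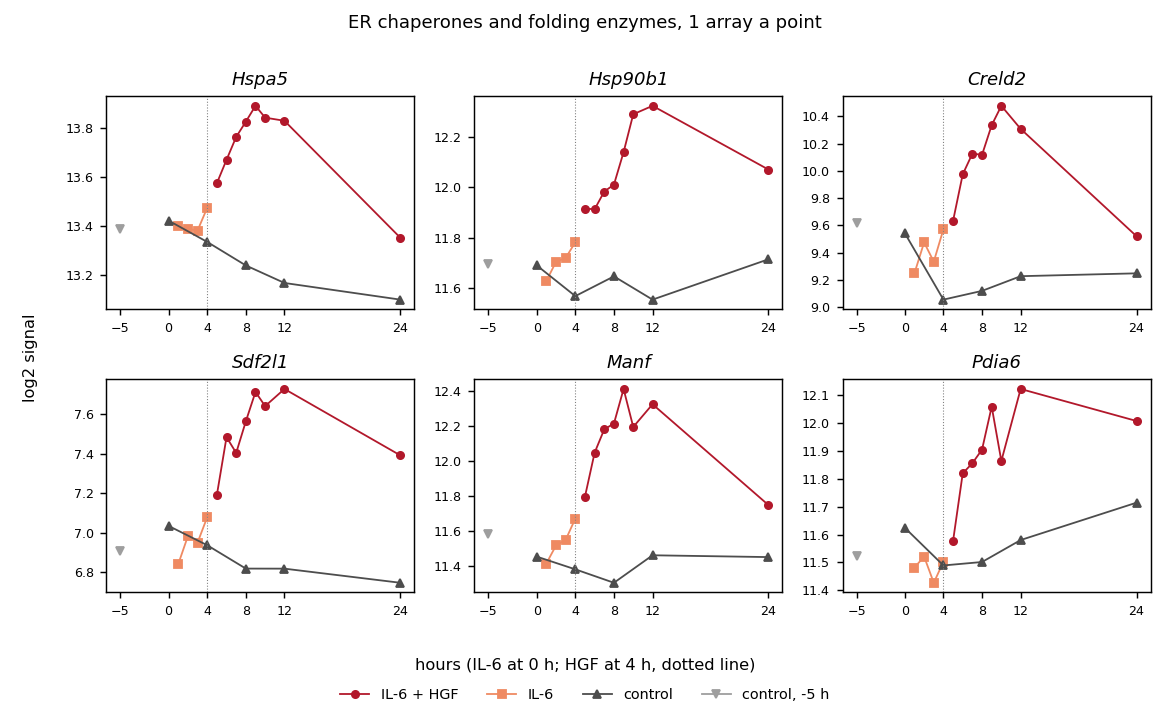
Log2 signal of 6 chaperone and folding genes by hour, 1 array a point, for IL-6 plus HGF, IL-6, control and the control at -5 h; the dotted line at 4 h marks the addition of HGF. In all 6 panels the IL-6 plus HGF value exceeds the control value at 8, 12 and 24 h.

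The remaining 8 chaperones and folding enzymes had positive differences that missed the threshold. Hyou1, a large ER chaperone related to Hsp70, differed by 0.45 ± 0.13 (SE, adjusted p = 0.0885). For Pdia3, the disulfide isomerase that works with calnexin and calreticulin, the difference was 0.36 ± 0.09 (SE, adjusted p = 0.0589). Calr (calreticulin) differed by 0.28 (adjusted p = 0.0663), Pdia4 by 0.28 (adjusted p = 0.189) and the BiP cofactor gene Dnajb11 by 0.26 (adjusted p = 0.0832). The smallest differences were those of the cofactor genes Dnajc3 (0.17) and Dnajb9 (0.12) and of the lectin chaperone calnexin (Canx, 0.15). Other probe sets of Dnajc3 gave -0.25 to 0.09 and those of Canx -0.19 to 0.20, so that their sign depends on the probe set. In 11 of the 14 the stimulated cells were higher in all 3 pairs of arrays, compared with 4302 of 18194 genes in all. The pairs at 8, 12 and 24 h gave median differences of 0.34, 0.54 and 0.25 over the 14.

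The highest values of these genes came at the middle hours of the course. Among the 8 IL-6 plus HGF arrays, 11 of 14 chaperones and folding enzymes (78.6%) were highest at 9, 10 or 12 h, compared with 37.7% of all genes, while 6 of 14 (42.9%) were lowest at 5 h and 6 of 14 at 24 h, compared with 12.8% and 25.8% of all genes. Hspa5, Manf, Dnajb9, Dnajc3 and Hyou1 were highest at 9 h, Creld2, Pdia4 and Calr at 10 h, and Hsp90b1, Sdf2l1 and Pdia6 at 12 h. On the 10 h array 18.4% of all genes were highest and 22.3% lowest, and its mean of Malat1 and Neat1 was the highest of all arrays.

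Where all 8 IL-6 plus HGF arrays are set against all 5 controls from 0 h, 5 of 23 chaperone-arm genes did not overlap, all with the stimulated cells higher: Hsp90b1, Sdf2l1, Manf, Dnajb11 and Xbp1. Over all genes 1.28% lay wholly above the controls and 1.97% wholly below. No ATF4-arm gene (0 of 16) was separated in this way. The lowest IL-6 plus HGF value of Dnajb11 was 10.20 at 24 h, against 10.09, 10.09, 10.06, 10.10 and 9.97 in the controls.

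**Figure D3:**
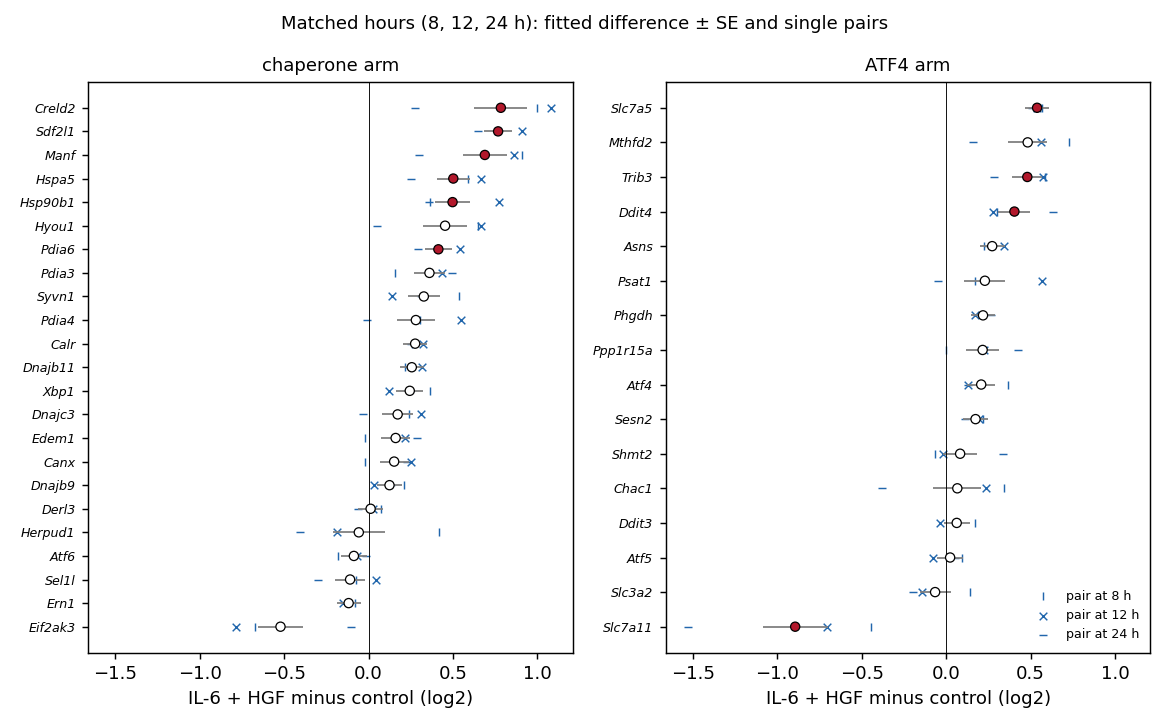
Difference in log2 signal, IL-6 plus HGF minus control at 8, 12 and 24 h, for every measured member of the chaperone arm (left) and the ATF4 arm (right). Circles are the fitted differences with their SE, filled where the adjusted p was under 0.05, and blue marks are the 3 single pairs; Slc7a11 at -0.89 is the one filled circle below 0.

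Genes of ER-associated degradation, which take misfolded proteins out of the ER for the proteasome, did not pass the test at matched hours (0 of 5 in either direction, median 0.01). Syvn1, the ubiquitin ligase HRD1, differed by 0.33 ± 0.09 (SE, adjusted p = 0.0879), and its array at 10 h stood apart with 10.80, against 9.43 to 9.95 on the other 7 IL-6 plus HGF arrays. Herpud1, a scaffold of the same ligase complex, differed by 0.42, -0.19 and -0.40 in the pairs at 8, 12 and 24 h, so the pairs had different signs. Sel1l, the adaptor of HRD1, differed by -0.11 (adjusted p = 0.498). Derl3, a channel component, differed by 0.01 (adjusted p = 0.939). For Edem1, which targets glycoproteins for degradation, the difference was 0.16 (adjusted p = 0.311).

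The sensors gave no call at matched hours (0 of 4 with Xbp1). Of these genes 3 were lower in all 3 pairs, compared with 4468 of 18194 genes in all. Eif2ak3, the gene of PERK, measured 7.65, 7.95 and 8.53 in IL-6 plus HGF cells, against 8.32, 8.73 and 8.64 in control cells. Its difference was -0.52 ± 0.14 (SE, adjusted p = 0.0651). It was called lower after centring, with a filter on dim genes, with an intensity trend, and without the 24 h pair (adjusted p between 0.0158 and 0.0496), while its other 2 probe sets gave -0.26 and -0.005. Ern1 and Atf6 differed by -0.12 and -0.09 (adjusted p = 0.36 and 0.525). In the pairs at 8, 12 and 24 h Ern1 differed by -0.08, -0.15 and -0.12, and Atf6 by -0.18, -0.07 and -0.01.

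Xbp1, the transcription factor gene that IRE1 acts on, was the member most separated in IL-6 cells before HGF. These probe sets read the total transcript and do not separate its spliced form. Its signal was 12.61, 12.83, 12.89 and 12.84 in IL-6 cells at 1, 2, 3 and 4 h, against 12.26 and 12.34 in control cells at 0 and 4 h. The difference was 0.49 ± 0.12 (SE, adjusted p = 0.515), which limma placed past an unadjusted p of 0.05 but not past the adjusted threshold. All 4 of its probe sets were higher, by 0.43 to 0.65. With all 5 controls from 0 h in place of 2 the difference of 0.50 was called (adjusted p = 0.0447). With the hours as a covariate, against the controls at 0 and 4 h, it was 0.47 and not called (adjusted p = 0.21 in limma). In IL-6 plus HGF cells Xbp1 had a lowest value of 12.44 at 12 h, a median of 12.69 and a highest of 12.84 at 7 h, all above the controls of 12.26, 12.34, 12.36, 12.32 and 12.20 from 0 to 24 h, and the matched difference was 0.24 ± 0.08 (SE, adjusted p = 0.124).

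**Figure D4:**
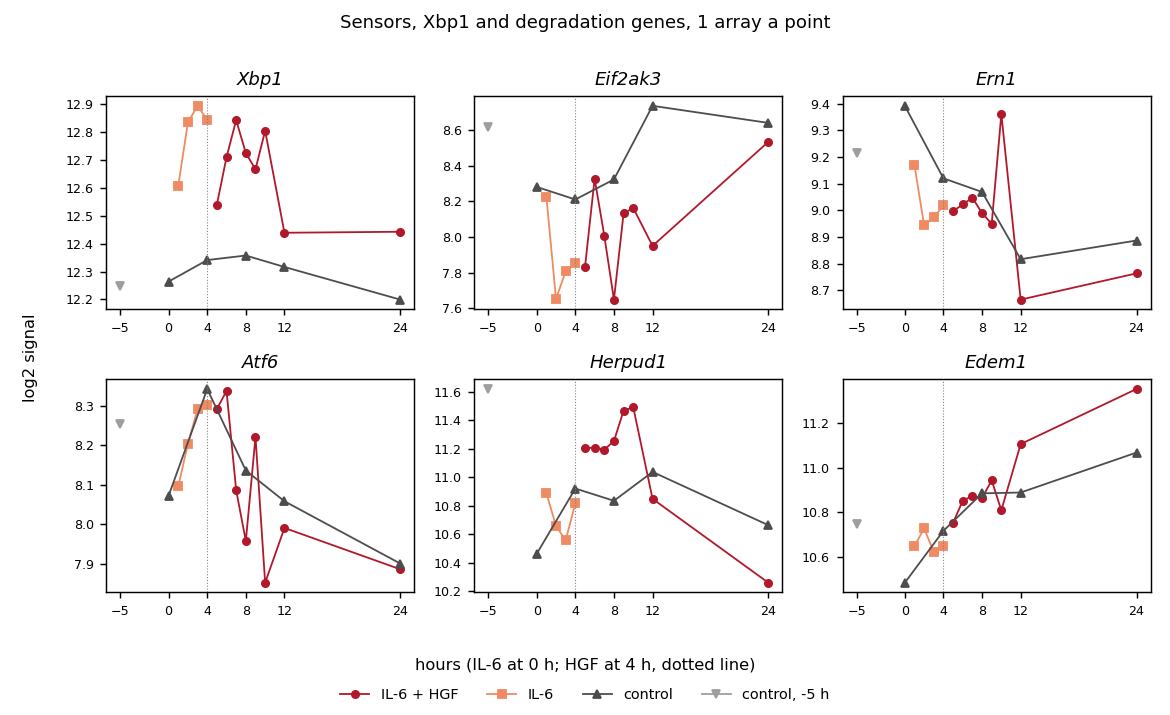
Log2 signal by hour of Xbp1, the sensors Eif2ak3, Ern1 and Atf6, and the degradation genes Herpud1 and Edem1, 1 array a point. Xbp1 lies between 12.61 and 12.89 under IL-6 alone, above every control, and Herpud1 is at 11.62 in the control at -5 h.

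Under IL-6 alone, in the main fit, no other member passed even an unadjusted p of 0.05. With all 5 controls further members passed it in limma, among them Eif2ak3 (-0.55), Syvn1 (0.32) and Mthfd2 (0.77). With the hours as a covariate the differences of these genes were -0.34, 0.22 and 0.21, again past it. None of them was called in either fit. Across 1 to 4 h of IL-6 against the controls at 0 and 4 h, 0 of 39 members were called in limma, against 4 genes higher (0.022%) and 0 lower (0%) of all genes, where 315 were higher and 341 lower at an unadjusted p under 0.05. Of the 39 members 1, Xbp1, was past that value, on the higher side. Kupffer cell markers had lower values in these cells, 7 of 11 below an unadjusted p of 0.05 and 0 after adjustment, with a median of -0.50, and their part in the Xbp1 value was not tested. The median difference was 0.04 in the chaperone arm and 0.03 in the ATF4 arm. Hspa5 differed by 0.03, Sdf2l1 by -0.02 and Creld2 by 0.11.

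The question whether the effect after HGF exceeded that of IL-6 alone was put as a difference of differences over 17 arrays. No member was called (0 of 39), and of all genes 0.011% were called in each direction, 2 higher and 2 lower. All 14 chaperones and folding enzymes had a larger effect in the later cells, with a median of 0.31, and 8 of them had an unadjusted p under 0.05. Of all 18194 genes, 609 were higher and 811 lower at that unadjusted p in limma. Sdf2l1 had the lowest adjusted p of the members, with a difference of 0.74 ± 0.16 (SE, adjusted p = 0.123), and Hspa5 followed in the arm with 0.52 ± 0.15 (SE, adjusted p = 0.303). In the ATF4 arm the median was 0.25, and Ppp1r15a (0.39) and Slc7a5 (0.43) had an unadjusted p under 0.05. In the pairs at 8, 12 and 24 h Ppp1r15a differed by -0.003, 0.22 and 0.43, and Slc7a5 by 0.57, 0.54 and 0.51. Genes that change with time can differ in this comparison through the unmatched hours alone, and that part was not tested.

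The calls at matched hours rest on few arrays. Without the pair at 8 h or that at 12 h, 1 of the 6 chaperone calls remained, Sdf2l1, and the same holds without the hour as a block. With all 8 IL-6 plus HGF arrays against the 3 late controls, in the fit of 17 arrays, 11 of 23 chaperone-arm genes were called higher and 0 lower. In that fit with the mean of Malat1 and Neat1 as a covariate, 7 of 23 were called higher and 0 lower. The shares of all genes called in these fits are not given here, so the counts are not set against them. Malat1 differed by 2.24, 1.35 and 1.08 in the pairs at 8, 12 and 24 h and was called higher, and Neat1 by 1.61, -1.37 and 0.25, so that these nuclear RNAs went opposite ways at 12 h. Of the markers of plasma cells, a cell type with high chaperone levels, 0 of 4 were called. Their mean lay within -0.08 and 0.18 of the control at 0 h on all arrays after it. Single markers varied more. The pairs at 8, 12 and 24 h differed by -0.19, 0.42 and 0.12 for Mzb1. For Jchain they differed by 0.16, 0.07 and -0.45. Hepatocyte markers moved in the direction opposite to the chaperone arm, with 3 of 7 called lower and a median of -0.33. Of the Kupffer cell markers 11 of 11 were lower in value and 1 was called (median -0.17), of the endothelial markers 7 of 8 were lower in value and 2 were called (median -0.27), and of the stellate cell markers 0 of 8 were called (median -0.08). Of 4 cholangiocyte markers 1 was called higher (median 0.12). The part of these markers and of the nuclear RNAs in the result was not tested further.

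The ATF4 arm was mixed at matched hours, with 3 of 16 genes higher (Trib3, Ddit4 and Slc7a5) and 1 lower (Slc7a11), against 2.53% of all genes higher and 6.45% lower, and a median of 0.21 against 0.01 over all genes. The share called lower, 1 of 16, is near that of all genes. The 3 transporters went separate ways. Slc7a5 encodes LAT1, the exchanger that brings leucine and other large neutral amino acids into the cell. It read 8.10, 7.88 and 8.02 in IL-6 plus HGF cells at 8, 12 and 24 h, against 7.53, 7.34 and 7.51 in control cells, and the difference was 0.54 ± 0.07 (SE, adjusted p = 0.00918), or 1.45-fold. The 8 IL-6 plus HGF arrays had a lowest value of 7.82 at 10 h, a median of 8.04 and a highest of 8.26 at 6 h, the IL-6 arrays read 8.17, 8.12, 7.95 and 8.22, and the controls from 0 h read 8.08, 7.85, 7.53, 7.34 and 7.51. The controls at 0 and 4 h lay within the range of the stimulated arrays, and the later controls all lay below it.

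Slc7a11, the cystine importer of system xc-, was the lower one. Its signal was 6.89, 6.60 and 6.19 in IL-6 plus HGF cells, against 7.33, 7.31 and 7.72 in control cells, a difference of -0.89 ± 0.19 (SE, adjusted p = 0.0386). The pairs differed by -0.44, -0.71 and -1.53 at 8, 12 and 24 h, widening with the hour. Its second probe set gave -1.003, and without the pair at 24 h the difference was -0.58 (adjusted p = 0.042). Slc3a2, the heavy chain (CD98) that both of these transporters pair with, did not differ beyond its error (-0.06 ± 0.09 (SE, adjusted p = 0.706)).

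Trib3, a pseudokinase that feeds back on ATF4, measured 9.18, 9.14 and 8.48 in IL-6 plus HGF cells, against 8.60, 8.56 and 8.20 in control cells. The difference was 0.48 ± 0.09 (SE, adjusted p = 0.025). Ddit4 (REDD1), an inhibitor of mTORC1 signalling, read 9.06, 9.43 and 9.98 in IL-6 plus HGF cells, against 8.76, 9.15 and 9.35 in control cells, and differed by 0.40 ± 0.09 (SE, adjusted p = 0.0482). Its pairs at 8, 12 and 24 h differed by 0.30, 0.28 and 0.63. Without the pair at 8 h or at 12 h, Slc7a5 alone of the 3 was still called higher, and Slc7a11 was not called without the pair at 12 h (adjusted p = 0.0787).

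The other regulators had positive differences that were not called. Atf4 itself read 11.82, 11.67 and 11.30 in IL-6 plus HGF cells, against 11.46, 11.54 and 11.17 in control cells, a difference of 0.21 ± 0.08 (SE, adjusted p = 0.182); ATF4 is controlled largely in translation, which RNA does not show. Over the whole course Atf4 had a lowest value of 11.30 at 24 h, a median of 11.75 and a highest of 12.06 at 10 h in IL-6 plus HGF cells, 11.98, 11.92, 11.91 and 12.08 in IL-6 cells and 11.91, 11.84, 11.46, 11.54 and 11.17 in control cells. Ddit3 (CHOP), a transcription factor linked to cell death under prolonged stress, read 7.70, 7.85 and 8.06 in IL-6 plus HGF cells, against 7.53, 7.89 and 8.00 in control cells. Its difference was 0.06 ± 0.08 (SE, adjusted p = 0.664), and its values over all IL-6 plus HGF arrays, with a lowest value of 7.31 at 6 h, a median of 7.73 and a highest of 8.06 at 24 h, overlapped those of 7.71, 7.47, 7.56 and 8.07 in IL-6 cells and 7.75, 7.77, 7.53, 7.89 and 8.00 in the controls. Its second probe set gave 0.47 at matched hours and 0.49 under IL-6 alone, where the one used gave -0.06, so that the probe sets disagree on this gene. Ppp1r15a (GADD34), which directs the phosphatase that restores translation, and Sesn2, a leucine sensor, differed by 0.22 and 0.17 (adjusted p = 0.235 and 0.201). The differences of Chac1 and Atf5 were 0.07 and 0.02 (adjusted p = 0.812 and 0.879).

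All 5 enzymes of asparagine, serine and one-carbon synthesis had positive differences and none was called (0 of 5). Mthfd2, of the mitochondrial folate pathway, was the nearest with 0.48 ± 0.12 (SE, adjusted p = 0.0523). Asns (asparagine synthetase) differed by 0.27 ± 0.07 (SE, adjusted p = 0.0726), Psat1 by 0.23 (adjusted p = 0.299), Phgdh by 0.22 (adjusted p = 0.125) and Shmt2 by 0.08 (adjusted p = 0.65).

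More ATF4-arm genes were called along the course of time. Under IL-6 plus HGF, from 5 to 24 h, 7 of 16 genes fell and 1 rose with the log2 of the hour, against 4.84% of all genes falling and 6.25% rising, and the median slope was -0.19 log2 units per unit of log2 hours. In the chaperone arm 2 of 23 rose, near the share of all genes, and 0 fell. None of these 10 calls remained without the array at 24 h (0 of 39 members), and without that at 8 h 4 of the ATF4 arm were called lower. Without the 24 h array the slopes of Asns, Trib3 and Atf5 were -0.05, -0.10 and -0.31, smaller than those given below by more than 1.5 times, and without the array at 5 h that of Chac1 was -0.34, also smaller by more than 1.5 times. Those of Mthfd2, Slc7a11, Slc3a2 and Ddit4 without the 24 h array were -0.49, -0.42, -0.40 and 0.75. Hepatocyte markers fell in the same test, 4 of 7 called and 7 of 7 negative, with a median slope of -0.28, and their part in the result was not tested.

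Mthfd2 had the smallest p, with a slope of -0.53 ± 0.06 (SE, adjusted p = 0.000769). Its IL-6 plus HGF arrays had a lowest value of 8.73 at 24 h, a median of 9.62 and a highest of 9.97 at 5 h, the IL-6 arrays read 9.86, 9.92, 9.74 and 9.88, and the controls from 0 to 24 h read 9.70, 9.59, 8.91, 8.63 and 8.57. Both courses were low at 24 h, and the stimulated cells were higher at 8, 12 and 24 h. Asns had a lowest value of 9.95 at 24 h, a median of 10.93 and a highest of 10.99 at 8 h in IL-6 plus HGF cells, 10.83, 10.84, 10.90 and 10.98 in IL-6 cells at 1 to 4 h and 10.82, 10.93, 10.77, 10.46 and 9.70 in control cells, with a slope of -0.42 ± 0.10 (SE, adjusted p = 0.0175) under IL-6 plus HGF. Its stimulated values kept within 10.81 and 10.99 up to 12 h. Slc3a2 had a lowest value of 11.42 at 24 h, a median of 12.32 and a highest of 12.49 at 5 h in IL-6 plus HGF cells, 12.50, 12.50, 12.42 and 12.46 in IL-6 cells and 12.53, 12.36, 12.14, 12.02 and 11.62 in control cells, with a slope of -0.49 ± 0.07 (SE, adjusted p = 0.00153). The pairs at 8, 12 and 24 h differed by 0.14, -0.14 and -0.19, with no common sign.

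Atf5, a relative of ATF4 under the same translational control, had a lowest value of 9.81 at 24 h, a median of 10.95 and a highest of 11.17 at 6 h in IL-6 plus HGF cells, 11.20, 11.16, 11.23 and 11.22 in IL-6 cells and 11.20, 11.00, 10.81, 10.75 and 9.76 in control cells, and a slope of -0.57 ± 0.09 (SE, adjusted p = 0.00247). Chac1, an enzyme that breaks down glutathione, had a lowest value of 7.33 at 24 h, a median of 8.13 and a highest of 9.25 at 5 h in IL-6 plus HGF cells, 9.61, 8.83, 8.37 and 9.51 in IL-6 cells and 9.32, 8.88, 7.90, 7.93 and 7.71 in control cells, and a slope of -0.57 ± 0.16 (SE, adjusted p = 0.0479). Most of its loss came between 5 and 6 h under IL-6 plus HGF and between 4 and 8 h in control cells. Trib3 fell as well, with a slope of -0.33 ± 0.09 (SE, adjusted p = 0.0376), on a lowest value of 8.48 at 24 h, a median of 9.16 and a highest of 9.49 at 5 h in IL-6 plus HGF cells. Its values were 9.14, 9.16, 9.06 and 9.45 in IL-6 cells and 8.84, 9.20, 8.60, 8.56 and 8.20 in control cells. In the ATF4 arm 9 of 16 genes were lowest at 24 h and 6 of 16 highest at 5 h among these 8 arrays, compared with 25.8% and 10.4% of all genes.

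Ddit4 went the other way, with a slope of 0.67 ± 0.13 (SE, adjusted p = 0.00828). It had a lowest value of 8.16 at 6 h, a median of 8.99 and a highest of 9.98 at 24 h in IL-6 plus HGF cells, 8.51, 8.50, 8.40 and 8.71 in IL-6 cells and 8.48, 8.72, 8.76, 9.15 and 9.35 in control cells. Slc7a11 fell under IL-6 plus HGF with a slope of -0.39 ± 0.10 (SE, adjusted p = 0.0322), with a lowest value of 6.19 at 24 h, a median of 6.89 and a highest of 7.11 at 6 h. IL-6 cells read 6.94, 6.95, 6.93 and 6.89, and control cells 6.89, 7.28, 7.33, 7.31 and 7.72, where the slope was 0.16 ± 0.03 (SE, adjusted p = 0.0566) and so of the opposite sign.

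**Figure D5:**
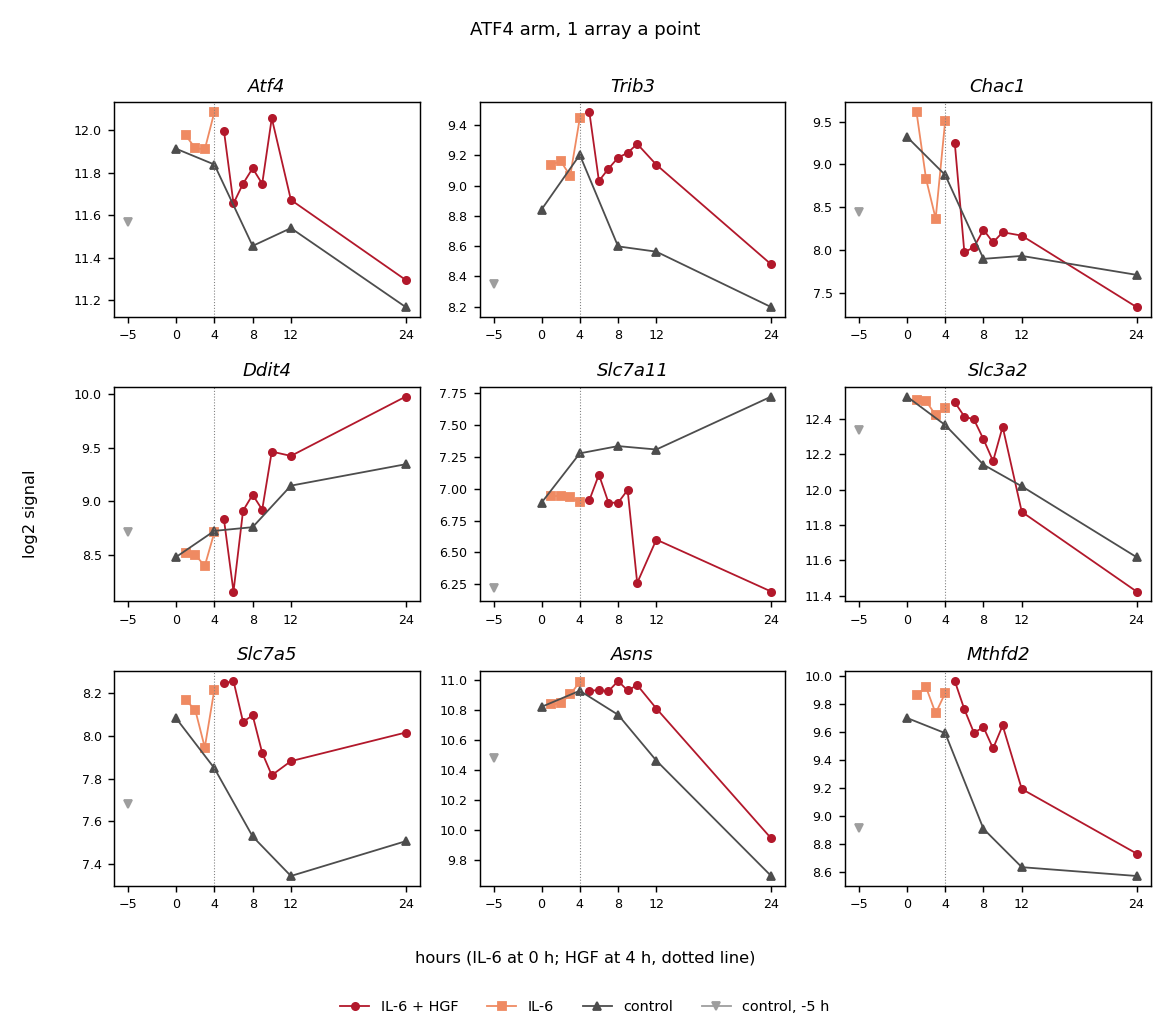
Log2 signal of 9 ATF4-arm genes by hour, 1 array a point, for IL-6 plus HGF, IL-6, control and the control at -5 h. Mthfd2, Asns, Slc3a2 and Chac1 are lowest at 24 h in both courses, Ddit4 is highest at 24 h in both, and for Slc7a11 the courses part, with 6.19 under IL-6 plus HGF and 7.72 in control cells at 24 h.

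Pdia3 and Edem1 were the chaperone-arm genes that rose with the hour under IL-6 plus HGF. Pdia3 had a lowest value of 12.10 at 5 h, a median of 12.16 and a highest of 12.74 at 24 h in IL-6 plus HGF cells, 11.89, 11.88, 11.86 and 11.99 in IL-6 cells and 11.95, 11.95, 12.04, 12.06 and 12.25 in control cells, and a slope of 0.30 ± 0.06 (SE, adjusted p = 0.012); its second probe set gave a slope of 0.008. Edem1 had a lowest value of 10.75 at 5 h, a median of 10.87 and a highest of 11.35 at 24 h in IL-6 plus HGF cells, 10.65, 10.73, 10.62 and 10.65 in IL-6 cells and 10.48, 10.72, 10.88, 10.89 and 11.07 in control cells, and a slope of 0.26 ± 0.06 (SE, adjusted p = 0.0143). Both genes were highest at 24 h.

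Control cells drifted as well. With the log2 of the hour plus 1, 2 of 16 ATF4-arm genes fell in the controls from 0 to 24 h, which were Chac1 and Ppp1r15a, and 0 rose, while 0 of 23 chaperone-arm genes were called in either direction; of all genes 1.46% fell and 2.14% rose. The slope of Chac1 was -0.38 ± 0.06 (SE, adjusted p = 0.0281) and that of Ppp1r15a -0.19 ± 0.03 (SE, adjusted p = 0.0318). Ppp1r15a had a lowest value of 8.83 at 6 h, a median of 8.93 and a highest of 9.24 at 5 h in IL-6 plus HGF cells and read 9.12, 9.13, 9.03 and 9.22 in IL-6 cells, against 9.41, 9.12, 8.91, 8.67 and 8.57 in control cells. Every control hour was lower than the one before it for this gene. Without any one of the controls at 0, 4, 8 or 12 h neither gene was called (0 of 16 each time).

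Whether the slopes of the 2 conditions differ was tested over the 8 IL-6 plus HGF arrays and the 4 controls from 4 h, a comparison added after the data were seen. No member was called (0 of 39, with 4 at an unadjusted p under 0.05), against 0.0385% of all genes with a higher and 0.0605% with a lower slope under IL-6 plus HGF. Slc7a11 had the largest difference, -0.55 ± 0.14 (SE, adjusted p = 0.257), and Ddit4 differed by 0.41 ± 0.17 (SE, adjusted p = 0.704). The declines of Mthfd2, Asns, Atf5, Trib3 and Chac1 differed by -0.13, 0.06, -0.11, 0.04 and -0.14, none past an unadjusted p of 0.05.

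The control array at -5 h stands before the start of the course, and its single value has no replicate. Against the 5 later controls no member was called (0 of 39), nor any gene in either direction (0% higher and 0% lower); 4 members, and 1018 of all genes, had an unadjusted p under 0.05. Herpud1 was at 11.62 in the -5 h control, against 10.46, 10.92, 10.84, 11.04 and 10.66 in the later controls, and Syvn1 at 10.05, against 9.57, 9.35, 9.27, 9.40 and 9.12. Slc7a11 was at 6.22 in the -5 h control, against 6.89, 7.28, 7.33, 7.31 and 7.72 in the later controls. Phgdh, the first enzyme of serine synthesis, was at 9.54, against 9.87, 9.90, 10.07, 10.16 and 10.21. The differences were 0.83, 0.71, -1.09 and -0.50 in the same order, each with an adjusted p of 0.838 in limma.

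Other genes of the same pathways were counted at matched hours too, where 2.53% of all genes were called higher and 6.45% lower. Of 53 further ER genes measured (55 listed), 3 were higher and 0 lower, with a median of 0.03: Spcs3 of the signal peptidase (0.65), the translocon partner Sec63 (0.61) and the disulfide isomerase relative Txndc5 (0.40). Of 46 further amino acid stress genes measured (47 listed), 4 were higher and 1 lower, with a median of 0.02. Gadd45a, a stress and growth arrest gene, differed by 1.02, the tryptophanyl and cysteinyl tRNA synthetase genes Wars and Cars by 0.74 and 0.34, the cationic amino acid transporter gene Slc7a1 by 0.36, and the glycine transporter gene Slc6a9 by -0.40.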

How the data were processed

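RNA of 18 samples was hybridised to 1-colour Affymetrix arrays with 45101 probe sets, after one-cycle biotin labelling per the labels' protocols. The values are those the authors deposited, 1 signal per probe set between 2.095 and 15.049, taken as log2 from their range; the normalization method is not given in the sources used here, and array quantiles departed from a common distribution by at most 0.118. Every column was assigned to a sample, and precision is limited by how many arrays there are. Gene names came from the platform annotation, updated through RefSeq gene IDs: 34958 probe sets had 1 symbol, 932 several and 9211 none, and those without a single symbol were left out. Each of 18194 genes was read from its brightest probe set on average. Gdf15 was not named in that annotation, so its expression is not analysed here.

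Differences and slopes came from lmFit and eBayes of limma 3.58.1 (R 4.3.3), with two-sided p-values adjusted by Benjamini-Hochberg over all genes. The fits were first run on simulated data with independent noise on each array, to check that added differences were recovered. That check did not cover successive hours without replicates. IL-6 alone, and the change of effect after HGF, were contrasts of 4 cell means over 17 arrays; matched hours used 6 arrays with the hour as block; slopes ran on log2 hours, or log2 of hours plus 1 in controls. The lone -5 h array was assumed to vary like the 5 later controls. Values on every array from 0 h (lowest, median and highest for groups over 5) are given for members called in any comparison. The same holds for Hspa5, Xbp1, Ddit3, Atf4, Asns and Trib3. Other pathway genes are named only where called, at most 4 a comparison and direction. Members, lists and tests were chosen with earlier results of these data known. Alternatives covered normalization, centring, a filter on the 40% of genes with the lowest mean, an intensity trend, the mean of all probe sets, other sample sets and leaving out arrays. Of these, the nuclear RNA covariate, the omission of the 10 h array and the difference of slopes, were added after seeing the data.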

Additional observations from a re-analysis of the deposited data

Results flagged for a closer look

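Of 117 tests of a group of 4 to 8 arrays for a value far from the others, 9 stood apart. Chance alone gives about 1 in 20 among replicates, but these arrays are successive hours, so that rate does not apply to them. The IL-6 plus HGF array at 10 h was high for Calr, at 13.443, and for Syvn1, at 10.7971; on that array the mean of the nuclear RNAs Malat1 and Neat1 was also the highest of all, 0.68 above the control at 0 h, and its part in these values was not tested. At 24 h the IL-6 plus HGF array was low for Atf5, at 9.814, for Trib3, at 8.4794, and for Asns, at 9.9464. At 5 h, 1 h after HGF was added, it was high for Chac1, at 9.2496, and for Ppp1r15a, at 9.2369. Sesn2 was high in the IL-6 array at 1 h, at 8.8983, and Shmt2 was low in the control array at 24 h, at 9.9336.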

How the results depend on the processing

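At matched hours the chaperone arm had 6 genes called higher. It had 11 with an intensity trend and robust variance, 11 over all late arrays of the 17-array fit, 10 over those arrays without the one at 10 h, and 1 without the hour as a block; without 1 pair of arrays it had 1 to 5. In the other direction 1 gene was called after centring on the median, 1 with the filter on dim genes and 1 with an intensity trend, and without 1 pair 0 to 1. The share of all genes called under each setting is not given beside these counts. The ATF4 arm had 3 higher, against 5 with the filter, 5 with an intensity trend, 1 with the nuclear RNA covariate, 0 without the block, and 1 to 3 without 1 pair. Its 1 lower gene became 0 with an intensity trend, 0 with the mean of all probe sets, 0 without the block, 0 with the nuclear RNA covariate, and 0 to 1 without 1 pair. The difference for Ddit4 reversed over the late arrays, to -0.0866 with the nuclear RNA covariate and -0.0427 without the array at 10 h, in fits that include stimulated hours with no control; the cause was not tested.

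For IL-6 alone, the chaperone arm had 1 gene called higher with all 5 controls. For slopes under IL-6 plus HGF, the chaperone arm had 1 rising gene with the mean of all probe sets and 0 to 2 without 1 array, and 1 falling gene with hours in place of log2 hours and 0 to 2 without 1 array. The ATF4 arm had 2 rising genes with the filter, 2 with an intensity trend, 2 with the mean of all probe sets and 0 to 2 without 1 array, and 4 falling genes with the mean of all probe sets and 0 to 8 without 1 array. In control cells, the chaperone arm had 1 rising gene after centring, 1 with the filter and 1 with an intensity trend. There the ATF4 arm had 1 rising gene after quantile normalization, 2 with the filter, 1 with an intensity trend, 1 with the mean of all probe sets and 2 with hours, and 5 falling genes after quantile normalization, 4 with the filter, 4 with an intensity trend, 6 with hours and 0 to 2 without 1 array. The chaperone-arm median at 9 h was 0.2538 with the mean of all probe sets, and at 12 h it was 0.3405 after quantile normalization and 0.2174 with the mean of all probe sets. The shares of all genes called under these settings are not given beside the counts, so the counts are not set against them. The causes were not tested.

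Of 564 alternative values for 45 results on single members, 423 kept direction and side of the threshold, 73 lost their call, 66 gained one and 2 reversed. The 45 results include some that were not called in the main fits, and these had no call to lose. All 73 lost calls and the 2 reversals belong to results called in the main fits. The share of calls lost is therefore larger than 73 of 564. Sdf2l1 at matched hours kept its call under all 12 alternatives run for it. With 1 array per condition and hour, and 2 residual degrees of freedom at matched hours, single-gene calls near the threshold depend on the choice of arrays. Arrays were paired by hour at matched hours; the labels give the groups no shared replicate numbers.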

Other observations

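The wider lists of the same pathways also had members with a slope over the IL-6 plus HGF course. Of 46 further amino acid stress genes, 7 fell and 1 rose from 5 to 24 h, against 4.84% and 6.25% of all genes. The 4 largest falls included Cth, the last enzyme of the route to cysteine, with a slope of -0.32 log2 units per unit of log2 hours, Aldh18a1, an enzyme of proline synthesis, with -0.27, and the tRNA synthetase gene Tars, with -0.27. Slc6a9, the glycine transporter gene, fell by 0.55 on the same scale, and Klhl24 was the one that rose, by 0.65. Of 53 further ER genes, 4 rose and 2 fell, both near the 6.25% and 4.84% of all genes. Spcs3 of the signal peptidase rose by 0.52, the prolyl isomerase gene Fkbp14 by 0.49, Mbtps1, the protease that cleaves ATF6, by 0.25, and the reductase gene Dnajc10 by 0.24. Ubxn4 and Edem2, both of ER-associated degradation, fell by 0.24 and 0.19. These lists were chosen with earlier results of the data known. In control cells Klhl24 rose by 0.52 and Slc7a1 fell by 0.21 per unit of log2 of hours plus 1.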
